A study of Mus musculus with 12 samples.

Results

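Skeletal muscle of mice after 5 days of high-fat feeding was compared with muscle of chow-fed mice on 8 Affymetrix expression arrays, out of 12 in the series. The 8 arrays were taken by their titles: 4 replicates labelled as chow and 4 labelled as 5 days of high-fat diet (HFD), and the 4 arrays of the longer diet entered no difference given here. Those of the longer diet did enter the p-values and counts that are given with the spread of 12 arrays. All mice were C57Bl/6, group housed on a 12-h light and dark cycle with free food and water, and had eaten a standard chow with 13% of its calories from fat until 6 weeks of age. The chow group then stayed on that diet, and the 5-day group was switched to a diet with 46% of its calories from fat for 5 days, so the contrast is one of a short dietary switch and not of established obesity. The labels do not name the muscle, the sex or the age of the chow group at sampling. They do not say whether the 4 replicates of a group were separate animals, so p-values measure only the spread between these samples, which may be technical. After 61 control probe sets were set aside, 45037 probe sets were tested, and 18193 genes were each represented by the probe set with their highest mean signal. Values are log2 signals as deposited, on which a difference of 1 is a doubling, and differences are 5 days less chow, ± SE.

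Skeletal muscle takes up glucose and fatty acids and burns either fuel according to supply. Fatty acids are made from glucose through citrate, which leaves the mitochondrion, is cleaved to acetyl-CoA by ATP citrate lyase and is built up by acetyl-CoA carboxylase and fatty acid synthase. These lipogenic genes are highly active in adipocytes and liver and are known to be repressed when the diet supplies fat. Immediate early genes such as Fos are transcribed within minutes of a signal, with no need for newly made protein.

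The labelled tissue was borne out by its markers: the mean log2 signal of 16 skeletal muscle genes, among them creatine kinase M and skeletal alpha-actin, was 14.89, 14.90, 14.88 and 14.88 in chow replicates 1 to 4 and 14.89, 14.88, 14.87 and 14.88 in 5-day replicates 1 to 4. On the leading principal component, with 31.9% of the variance, chow arrays scored between -17.4 and -8.98 and 5-day arrays between 7.74 and 21.8, with no overlap. The arrays also differed in the shape of their signal distribution. The interquartile range of log2 signal was 2.50 ± 0.027 (SD, n = 4) in chow and 2.58 ± 0.038 (SD, n = 4) at 5 days. Dim and bright probe sets had opposite median differences, from -0.07 in decile 5 of mean signal to 0.07 in decile 9. List medians are therefore also given against the genes' own deciles for fatty acid oxidation, pyruvate dehydrogenase, lymphocytes and the proteasome. The same holds for the TCA cycle, complex I, PGC-1 and mitochondrial fusion and fission. Other list medians are given without that comparison, and deciles 8, 9 and 10 themselves had medians of 0.02, 0.07 and 0.06. The median difference of all genes was -0.01.

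**Figure D1:**
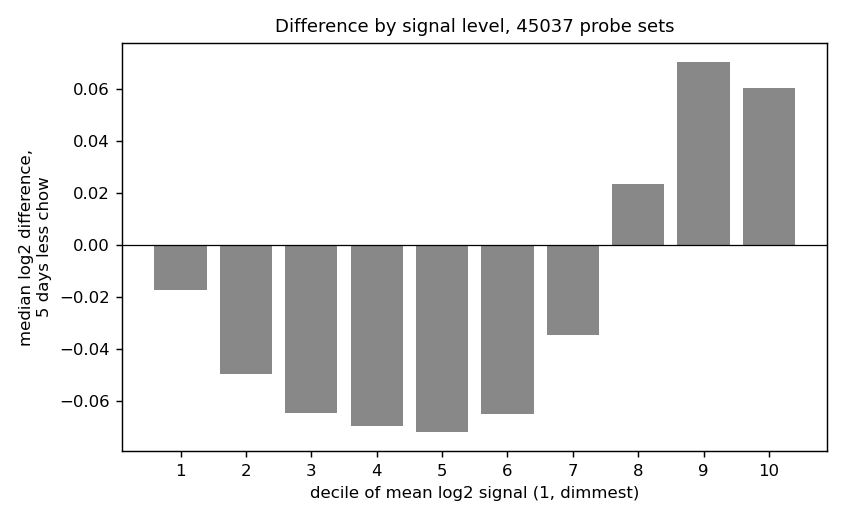
Median log2 difference (y axis, 5 days less chow) of the probe sets in each decile of mean log2 signal (x axis, 1 the dimmest). Deciles 1 to 7 lie below 0 and deciles 8 to 10 above it, between -0.07 and 0.07.

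At an adjusted p under 0.05 (limma, Benjamini-Hochberg over all probe sets), 7 of 45037 probe sets, or 0.0155%, differed between the groups: 3 rose and 4 fell. Many more lay just beyond that threshold: 1920 probe sets passed a looser adjusted p under 0.1, 879 of them higher and 1041 lower. At an unadjusted p under 0.05 there were 9511 probe sets, or 21.1%, of which 3882 were higher and 5629 lower at 5 days. When the spread was estimated from all 12 arrays of the series, with the means of the same 8 arrays compared, 1445 probe sets passed 0.05 (687 higher and 758 lower). With each array centred on its median, 933 passed (842 higher and 91 lower), so the split by direction depends on the scaling. The count of 7 also turned on single arrays. It was 39, 2, 0 and 1 without chow replicates 1 to 4 in turn, and 0, 0, 111 and 28 without 5-day replicates 1 to 4. In the 3 fits with a count of 0, limma gave 8919 (without chow replicate 3), 9624 (without 5-day replicate 1) and 6951 (without 5-day replicate 2) probe sets at an unadjusted p under 0.05. For this reason "rose" and "fell" are kept below for the 7 probe sets, and all other genes are given by their values, by whether all 4 values of one group lay above all 4 of the other, and by whether they passed the looser adjusted p under 0.1. Among 18193 genes, 1.51% passed that looser threshold with a higher mean at 5 days and 2.2% with a lower one. Groups did not overlap, with all 5-day values higher, in 5.24% of genes, and with all lower in 6.45%. These percentages are the background over all genes for every gene group below, and they were not matched for signal. The share of probe sets with a positive difference was 28% in decile 5 of mean signal and 74.3% in decile 10. A list's share above the background is therefore not by itself an excess over equally bright genes.

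Ccdc122, a coiled-coil protein with little known of its role, had the smallest p. Its log2 signal was 8.04, 7.87, 7.99 and 7.89 in chow replicates 1 to 4 and 7.23, 7.21, 7.34 and 7.31 in 5-day replicates 1 to 4. It fell by 0.67 ± 0.06, a 1.59-fold drop, with an adjusted p of 0.00673 (limma), and the groups were far apart relative to their spread. Mgst2, a microsomal glutathione transferase, gave 7.30, 7.20, 7.35 and 7.45 in the chow arrays and 6.83, 6.71, 6.87 and 6.61 in the 5-day arrays, a difference of -0.57 ± 0.08. The probe set of Cdt1, which licenses origins of DNA replication, gave 7.99, 7.97, 8.04 and 7.97 on chow and 7.47, 7.62, 7.55 and 7.57 at 5 days, a difference of -0.44 ± 0.06. The zinc finger gene Zfp800 gave 6.96, 6.80, 6.74 and 6.84 on chow and 6.44, 6.24, 6.21 and 6.25 at 5 days with the probe set that passed, a difference of -0.55 ± 0.07. Mgst2, Cdt1 and Zfp800 shared an adjusted p of 0.0493 (limma) with the 3 rises, and in each the 4 values at 5 days were all below the lowest chow value.

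Among the rises, Hsdl2, a short-chain dehydrogenase related to lipid-handling enzymes of peroxisomes and mitochondria, gave 10.20, 10.16, 10.19 and 10.18 in the chow arrays and 10.63, 10.72, 10.58 and 10.77 in the 5-day arrays, a difference of 0.49 ± 0.06. Its second probe set gave 0.31 ± 0.07 and also had groups that did not overlap. The centrosomal gene Sdccag8 gave 6.17, 6.28, 6.18 and 6.17 on chow and 6.59, 6.85, 6.99 and 6.75 at 5 days with the probe set that passed, a difference of 0.59 ± 0.08. Pcmtd1, a relative of protein-repair methyltransferases, gave 8.54, 8.32, 8.28 and 8.36 on chow and 8.89, 8.97, 8.81 and 8.98 at 5 days, a difference of 0.54 ± 0.07. The probe sets that passed for Sdccag8, Zfp800 and Mgst2 were dim, with both group means below 7.635, the median of all values. Only Hsdl2 of the 5 genes with several probe sets had all of them without overlap and in one direction. The brightest probe set of Sdccag8 gave -0.10, that of Zfp800 -0.10 and that of Pcmtd1 0.20 with overlapping groups in all 3, and the other probe sets of Cdt1 gave -0.15 and 0.16. The plot of all probe sets of these genes shows the spread within a gene.

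**Figure D2:**
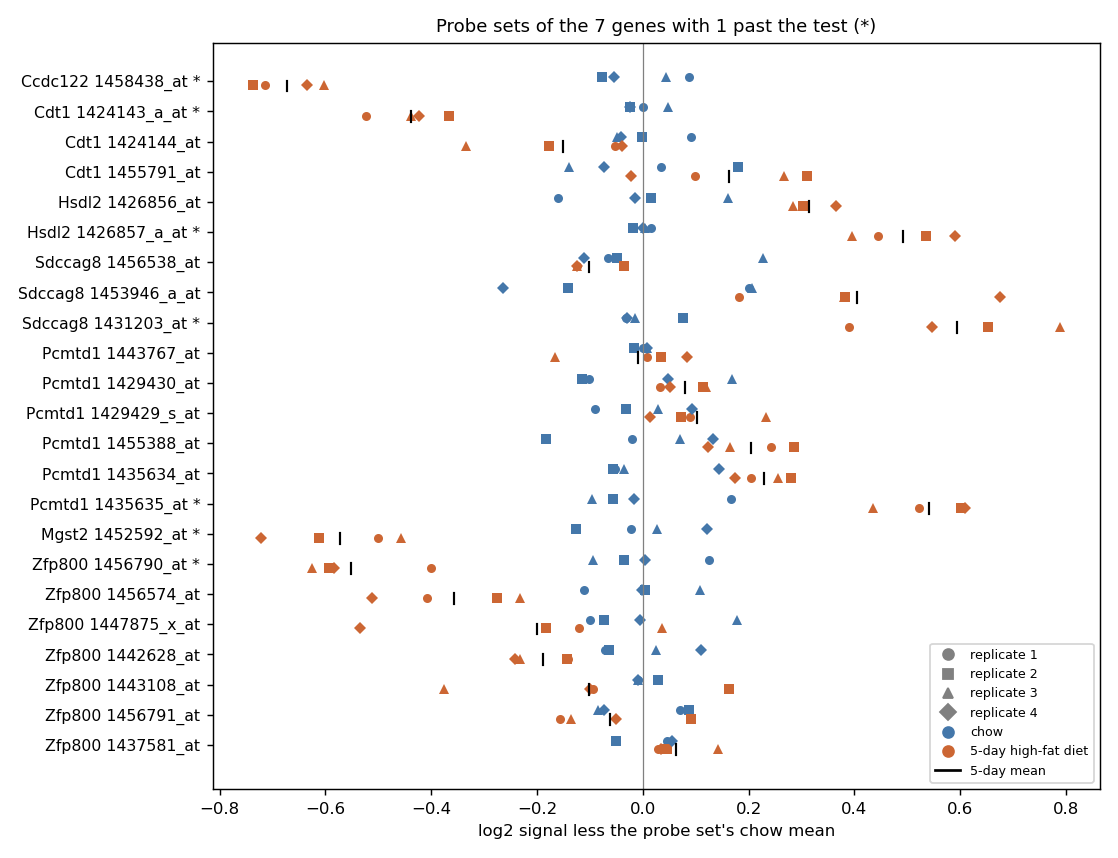
Log2 signal less the chow mean (x axis) for every probe set of the 7 genes with 1 probe set past the test (asterisk); points are single arrays, blue for chow and orange for 5 days, and black ticks are 5-day means. Asterisked probe sets lie between -0.67 and 0.59 on average, while other probe sets of Sdccag8, Zfp800, Pcmtd1 and Cdt1 lie nearer 0 or on the other side of it.

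Lipogenic genes were among the largest negative differences. The 12 largest in each direction were taken over genes whose groups did not overlap, with clone-like names left out and with the higher group's mean above the median of all probe sets. That limit on signal leaves out, among the positive differences, the dimmer genes Bhmt2 (0.67), Tcp11x2 (0.65), Saa2 (0.60) and Gngt1 (0.51), each larger than some of the 12 and named after its values were seen. Fatty acid synthase, Fasn, which builds palmitate, gave 11.00, 11.55, 12.17 and 12.79 in chow replicates 1 to 4 and 9.51, 9.97, 10.11 and 9.31 in 5-day replicates 1 to 4. Every 5-day value was below every chow value, and the difference was -2.15 ± 0.30, a 4.45-fold lower mean. Its adjusted p was 0.0560 with limma on 8 arrays and 0.0112 with the spread of 12. Chow replicate 1 was the lowest and chow replicate 4 the highest of the chow arrays, and the chow values alone spanned more than 1 log2 unit. In 11 of the 12 genes with the largest negative differences, chow replicates 1 and 4 were likewise the lowest and the highest chow values.

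The steps before Fasn differed in the same way. Slc25a1, the carrier that exports citrate from the mitochondrion, gave 9.24, 9.73, 10.08 and 10.77 on chow and 8.55, 8.64, 8.76 and 8.36 at 5 days, a difference of -1.38 ± 0.24 (adjusted p = 0.0688, limma). Acly, ATP citrate lyase, gave 9.76, 10.14, 10.69 and 11.06 on chow and 9.23, 9.41, 9.31 and 9.29 at 5 days, a difference of -1.10 ± 0.21. Acaca, the cytosolic acetyl-CoA carboxylase, gave 10.12, 10.39, 10.76 and 11.24 on chow and 9.64, 9.79, 9.81 and 9.64 at 5 days, a difference of -0.91 ± 0.18. None of these 3 genes had overlapping groups with its brightest probe set. The second probe set of Acaca gave -0.14 with overlap. For Acly the next brightest probe set gave -0.88 without overlap, and the others gave -0.52, -0.08, -0.10 and -0.11 with overlap. Tkt, the transketolase of the pentose phosphate pathway, gave 10.72, 11.39, 12.06 and 12.58 on chow and 9.94, 10.13, 10.43 and 10.01 at 5 days, a difference of -1.56 ± 0.30, and all 3 of its probe sets were lower without overlap.

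Downstream of Fasn, the elongase Elovl6 gave 7.97, 8.59, 8.80 and 9.46 on chow and 7.45, 7.40, 7.46 and 7.62 at 5 days, a difference of -1.22 ± 0.22. The desaturase Scd1, which makes oleate, gave 13.22, 13.48, 13.78 and 14.27 on chow and 11.97, 13.03, 12.96 and 12.24 at 5 days, a difference of -1.14 ± 0.25. Both genes had groups that did not overlap. Scd1 differed by -1.65 with its other probe set, while 1 of the 3 probe sets of Elovl6 was higher at 5 days, by 0.15. Of 20 measured genes of fatty acid synthesis, 6 (30%) were lower without overlap and 0 higher, and the same 6 passed an adjusted p under 0.1. The sixth, beside Fasn, Acly, Acaca, Scd1 and Elovl6, was Thrsp, a lipogenic regulator named here after its values were seen. The list's median difference was -0.09, because its other 14 members lay between -0.20 and 0.17. Srebf1 and Mlxipl, which encode the lipogenic transcription factors SREBP-1 and ChREBP, gave 0.00 ± 0.07 and 0.05 ± 0.08, and both changed sign under other array scalings. Among 17 genes of citrate export and NADPH supply, 3 (17.6%) were lower without overlap and 1 was higher, with a median of -0.07. Without single arrays these 2 medians, less that of all genes, came as near 0 as -0.04 (without 5-day replicate 3 for synthesis and without chow replicate 3 for citrate export), from -0.08 and -0.06. Insig1, which holds SREBP in the endoplasmic reticulum, gave -0.51 ± 0.14, also without overlap.

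The promoter of Slc25a1, the only one of the 12 genes with the largest negative differences to have an E-box in a matched RefSeq window, is shown for that site, at which some basic helix-loop-helix factors can bind. It is the 250 bases before the annotated start, on the minus strand of chr16:17928220-17928469 (GRCm38.p6), with the E-box CACGTG in capitals at -239 from the start.
Slc25a1: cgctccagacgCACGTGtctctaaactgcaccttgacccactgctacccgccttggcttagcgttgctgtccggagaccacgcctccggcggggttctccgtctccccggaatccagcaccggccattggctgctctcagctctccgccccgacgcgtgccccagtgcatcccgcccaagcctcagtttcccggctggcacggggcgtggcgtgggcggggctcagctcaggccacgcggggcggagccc
An E-box, a palindrome and so the same on both strands, was found in 1 of 11 windows (9.09%) of the 10 matched genes among these 12. It was found in 7.15% of all 32851 windows of 300 bases, 250 before to 50 after a start. A match of letters is a description of the window and not of binding.

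**Figure D3:**
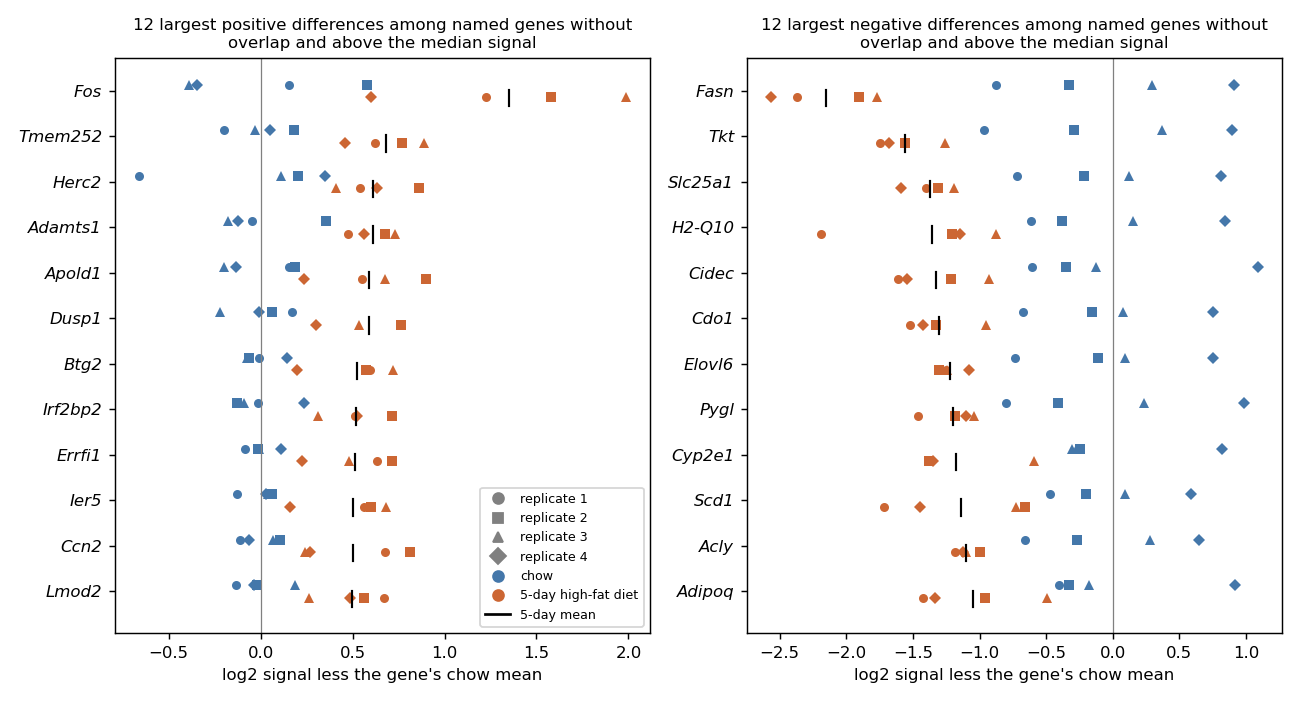
Log2 signal less the gene's chow mean (x axis) for the 12 largest positive (left) and 12 largest negative (right) differences among named genes with groups that do not overlap and a higher group above the median signal; points are single arrays, blue for chow and orange for 5 days, marker shape is the replicate, and black ticks are 5-day means. Negative mean differences run from -1.05 (Adipoq) to -2.15 (Fasn), with chow arrays spread widely, and positive ones from 0.50 (Lmod2) to 1.35 (Fos).

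Adipocyte genes were lower beside the lipogenic genes. Adipoq, the adipocyte hormone adiponectin, gave 11.59, 11.67, 11.82 and 12.91 on chow and 10.58, 11.04, 11.51 and 10.66 at 5 days, a difference of -1.05 ± 0.27 (adjusted p = 0.0825, limma). Retn, resistin, gave -0.97 ± 0.21, and the lipid droplet protein Cidec gave -1.33 ± 0.29, both without overlap between the groups. The spread among chow arrays was wide for all 3 genes, with chow replicate 4 the highest.

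Of 14 measured white adipocyte markers, 3 (21.4%) were lower without overlap and 1 was higher, and 4 passed an adjusted p under 0.1 in the lower direction. Their mean log2 signal was 9.92, 10.09, 10.10 and 10.63 in chow replicates 1 to 4 and 9.63, 9.82, 9.93 and 9.70 in 5-day replicates 1 to 4, and their median difference was -0.28. Less that of all genes, the median was -0.27, and -0.11 without chow replicate 4. The list was not lower throughout. Fabp4, the adipocyte fatty acid binding protein, gave 13.68, 14.07, 13.87 and 14.27 on chow and 13.52, 13.64, 13.85 and 13.49 at 5 days, with overlapping groups and a difference of -0.35 ± 0.12. Lep, leptin, gave -0.07 ± 0.10. Cd36, a fatty acid transporter that muscle fibres and endothelium also make, was higher in every 5-day array, by 0.26 ± 0.08. In bulk tissue, fewer cells of a type and less RNA per cell cannot be told apart.

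Brown adipocyte genes spread widely among the chow arrays. Ucp1, the uncoupling protein that defines brown fat, gave 7.50, 8.72, 9.58 and 9.82 on chow and 7.18, 7.88, 7.47 and 7.19 at 5 days. Cidea, a lipid droplet protein of brown fat, gave 8.35, 9.82, 10.23 and 11.05 on chow and 8.22, 8.11, 8.38 and 8.12 at 5 days. Chow replicate 1 lay within the range of the 5-day arrays for both, so the groups overlapped, while the other 3 chow arrays were above every 5-day value. The differences were -1.47 ± 0.39 for Ucp1 and -1.65 ± 0.40 for Cidea, with adjusted p of 0.0876 and 0.0773 (limma). None of 10 measured brown adipocyte markers had groups that did not overlap, and their list mean was 8.65, 8.94, 9.15 and 9.26 on chow and 8.58, 8.64, 8.59 and 8.58 at 5 days. Zic1 and Prdm16, markers of the brown lineage, differed by -0.03 and 0.10.

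The lipogenic genes were also fitted with the mean of the white adipocyte markers as a covariate. The difference was then -1.18 for Fasn, -0.65 for Tkt, -0.61 for Slc25a1, -0.57 for Elovl6, -0.50 for Acly, -0.40 for Scd1 and -0.34 for Acaca, so each was nearer 0 and stayed negative. With that covariate 0 probe sets passed an adjusted p under 0.05 (limma), 7068 had an unadjusted p under 0.05, and the smallest adjusted p was 0.0956. The marker mean was itself lower in 3 of the 4 5-day arrays than in every chow array, and its part in the lipogenic differences cannot be told apart from that of the diet.

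Triglyceride genes gave a similar set of values. Of 27 measured genes of triglyceride synthesis and lipolysis, 7 (25.9%) were lower without overlap and 0 higher, and 7 passed an adjusted p under 0.1 in the lower direction, with a median difference of -0.14. Cidea, Cidec, Lipe and Pck1 are also on an adipocyte list. Without these 4 genes, 6 of 23 were lower without overlap and the median was -0.05. Over all 27 and less that of all genes, the median was -0.13, and -0.07 without chow replicate 4. Agpat2, which makes phosphatidic acid, gave 9.12, 9.33, 9.77 and 10.26 on chow and 8.66, 8.78, 8.97 and 8.71 at 5 days, a difference of -0.84 ± 0.19. Gpat3 and Mogat1, other acyltransferases of triglyceride synthesis, gave -0.38 ± 0.09 and -0.32 ± 0.07 without overlap. Mogat1 was dim, with means of 6.62 on chow and 6.30 at 5 days. Pck1, used by adipocytes to make glycerol phosphate, gave -1.47 ± 0.36 with groups that overlapped in 1 array of each. Plin2, which coats lipid droplets in many cells including muscle, gave -0.45 ± 0.15, with overlapping groups.

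Several genes better known from liver and fat stood among the largest negative differences. Cyp2e1, a microsomal cytochrome P450, gave 12.46, 12.48, 12.41 and 13.54 on chow and 11.34, 11.34, 12.13 and 11.37 at 5 days, a difference of -1.18 ± 0.24. Pygl, the liver form of glycogen phosphorylase, gave 7.89, 8.28, 8.93 and 9.68 on chow and 7.24, 7.51, 7.66 and 7.59 at 5 days, a difference of -1.20 ± 0.28. Cdo1 and Csad, which turn cysteine towards taurine, gave -1.31 ± 0.23 and -0.48 ± 0.12. H2-Q10, a class I gene, gave 8.41, 8.64, 9.18 and 9.87 on chow and 6.83, 7.82, 8.15 and 7.88 at 5 days, a difference of -1.35 ± 0.31. All 5 genes were lower without overlap, and with the adipocyte covariate they gave -0.42, -0.29, -0.54, -0.14 and -0.42 in that order.

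Liver transcripts as a list did not follow Cyp2e1. Their mean log2 signal over 16 genes, albumin and fibrinogens among them, was 8.47, 8.43, 8.22 and 8.51 in the chow arrays and 7.93, 8.12, 8.65 and 9.12 in the 5-day arrays. The 5-day arrays spread on both sides of all chow values, and 14 of the 16 genes were highest of the 5-day arrays in replicate 4. Apoa2, an apolipoprotein, gave 8.83, 8.71, 8.31 and 8.64 on chow and 8.42, 8.62, 9.03 and 9.66 at 5 days, with overlapping groups. The list's median, less that of all genes, was 0.22 with all arrays and -0.08 without 5-day replicate 4.

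Most listed genes that burn fatty acids were slightly higher at 5 days. Of 24 measured genes of fatty acid oxidation, 23 had a positive difference and 7 (29.2%) were higher in every 5-day array than in every chow array, with 0 lower. The median difference was 0.15, or 0.16 less that of all genes, which was 0.10 after quantile normalization and 0.09 after cyclic loess. It was 0.08 once the median of each gene's signal decile was taken off. Acadl, the long-chain acyl-CoA dehydrogenase, gave 13.00, 13.06, 13.05 and 12.93 on chow and 13.30, 13.30, 13.23 and 13.26 at 5 days, a difference of 0.27 ± 0.06 (adjusted p = 0.0741, limma). Etfdh, which passes electrons from these dehydrogenases to ubiquinone, gave 0.29 ± 0.07, although its other probe set gave -0.08. Hadha, of the trifunctional protein, and Ech1, an isomerase for unsaturated chains, gave 0.20 ± 0.06 and 0.22 ± 0.07. These 4 genes had groups that did not overlap, at sizes of 1.15-fold to 1.22-fold. Ehhadh, a peroxisomal enzyme of fatty acid oxidation that is not on this list, went the other way. It was lower in every 5-day array, with a difference of -0.42 ± 0.10 (adjusted p = 0.0748, limma).

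Fabp3, the muscle fatty acid binding protein, carries fatty acids through the cytosol and was higher in every 5-day array. It gave 13.66, 13.73, 13.62 and 13.53 on chow and 14.09, 14.03, 13.97 and 14.15 at 5 days, a difference of 0.42 ± 0.07 (adjusted p = 0.0688, limma, and 0.0159 with the spread of 12 arrays). Its other probe set gave -0.07. Bdh1, which interconverts the ketone bodies, gave 10.04, 10.24, 10.25 and 9.79 on chow and 10.56, 10.37, 10.45 and 10.91 at 5 days, a difference of 0.49 ± 0.12, with its other probe set at 0.44. The 5 measured genes of ketone body metabolism all had positive differences, with a median of 0.14. Well-known PPAR targets of muscle gave values nearer 0. Pdk4, which shuts pyruvate dehydrogenase in favour of fat, gave 14.09, 14.27, 14.24 and 14.07 on chow and 14.05, 14.22, 14.10 and 14.11 at 5 days, a difference of -0.05 ± 0.07. Ucp3 gave -0.01 ± 0.08, and Angptl4, which inhibits lipoprotein lipase, gave -0.33 ± 0.17, all with overlapping groups. Angptl4 was -0.50 without chow replicate 1, -0.18 without chow replicate 4 and 0.17 with the adipocyte covariate. Of 27 measured PPAR targets, 2 (7.41%) were higher without overlap and 2 lower, close to the background in both directions.

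Pyruvate dehydrogenase, the gate from glycolysis to the mitochondrion, had higher values in several core subunits. Dlat, its acetyltransferase, gave 11.93, 11.97, 11.98 and 11.96 on chow and 12.16, 12.24, 12.26 and 12.28 at 5 days, a difference of 0.28 ± 0.06 (adjusted p = 0.0698, limma). Pdhx, which anchors the dihydrolipoamide dehydrogenase of the complex, gave 10.59, 10.68, 10.71 and 10.52 on chow and 10.84, 11.02, 10.90 and 11.08 at 5 days, a difference of 0.33 ± 0.07. Pdp2, a phosphatase that reactivates the complex, was lower in every 5-day array, with a difference of -0.29 ± 0.07. Pdp1, the other such phosphatase, named after its values were seen, was higher in every 5-day array, with a difference of 0.21 ± 0.08. Of 13 measured genes, 6 (46.2%) were higher without overlap and 1 lower, with a median of 0.06 that was 0.0015 against the genes' own signal deciles. Dld, that dehydrogenase, was among the 6, at 0.20 ± 0.07. The median less that of all genes was 0.07, and 0.02 after quantile normalization or cyclic loess.

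Genes of the TCA cycle and complex I had median differences close to those of equally bright genes. In the TCA cycle, 6 of 20 genes (30%) were higher without overlap, yet the median was 0.07, or 0.01 against their deciles, and Dld was the largest of the 6. Pcx, pyruvate carboxylase, which is abundant in adipocytes, went the other way at -0.49 ± 0.13 with overlapping groups. Of 34 genes of respiratory complex I, 5 (14.7%) were higher without overlap, with a median of 0.04, or -0.01 against their deciles, and Ndufs1, its largest subunit, gave 0.24 ± 0.06. The subunit Cox6a1 of complex IV gave 12.43, 12.75, 12.95 and 13.27 on chow and 12.23, 12.34, 12.47 and 12.27 at 5 days, a difference of -0.53 ± 0.14, with the order of chow arrays seen for Fasn and with overlapping groups. Ppargc1a, the coactivator PGC-1 alpha, gave 10.65, 10.91, 10.64 and 10.52 on chow and 11.02, 10.94, 11.00 and 10.58 at 5 days, a difference of 0.21 ± 0.11 with overlapping groups. The 20 genes around PGC-1 had a median of 0.10, or 0.04 against their deciles, with 1 (5%) higher without overlap. Of 15 genes of mitochondrial fusion and fission, 5 (33.3%) were higher without overlap and 1 lower, with a median of 0.09, or 0.02 against their deciles. Less that of all genes, the median of the PGC-1 list was 0.11, and 0.04 after quantile normalization or cyclic loess, and that of the fusion and fission list was 0.10, and 0.03 after either. After cyclic loess the TCA cycle gave 0.03 in place of 0.08, and complex I 0.01 in place of 0.05. Opa1, which fuses the inner membrane, gave 0.15 ± 0.06, and Immt, which shapes the cristae, gave 0.18 ± 0.06.

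Immediate early genes were prominent among the largest positive differences. Fos gave 9.26, 9.69, 8.72 and 8.77 in chow replicates 1 to 4 and 10.34, 10.69, 11.10 and 9.71 in 5-day replicates 1 to 4. All 4 values at 5 days were above the highest chow value, and the means differed by 1.35 ± 0.26, or 2.55-fold, with an adjusted p of 0.0689 (limma) and 0.0263 with the spread of 12 arrays. The 5-day values spanned more than 1 log2 unit and were lowest in replicate 4. Jun, its partner in AP-1, gave 11.60, 11.62, 11.82 and 11.99 on chow and 12.24, 12.20, 12.17 and 12.00 at 5 days, a difference of 0.39 ± 0.09. Fosl1, another AP-1 member, was lower in every 5-day array, with a difference of -0.18 ± 0.06, although its second probe set gave 0.17. Of 9 AP-1 factors, 2 (22.2%) were higher without overlap and 1 lower, with a median of 0.26.

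The other immediate early genes included feedback inhibitors of growth signalling. Dusp1, a phosphatase that turns off MAP kinases, gave 11.82, 11.72, 11.43 and 11.65 on chow and 12.41, 12.42, 12.19 and 11.96 at 5 days, a difference of 0.59 ± 0.11 (adjusted p = 0.0688, limma). Btg2, an antiproliferative gene, gave 10.78, 10.73, 10.71 and 10.93 on chow and 11.38, 11.36, 11.51 and 10.99 at 5 days, a difference of 0.52 ± 0.10, and its second probe set gave 0.84. Errfi1, an inhibitor of the EGF receptor, gave 10.45, 10.53, 10.53 and 10.65 on chow and 11.17, 11.26, 11.02 and 10.76 at 5 days, a difference of 0.51 ± 0.10. All 3 genes were higher in every 5-day array. Ier5 and Ccn1 gave 0.50 ± 0.10 and 0.48 ± 0.09, and Apold1, an endothelial immediate early gene, gave 0.59 ± 0.13, again without overlap, although 1 of the 4 probe sets of Ccn1 was lower.

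The list of 32 immediate early genes beside AP-1 does not include Errfi1. Of these 32, 8 (25%) were higher without overlap and 0 lower, 9 passed an adjusted p under 0.1 in the higher direction, and the median was 0.23. Their mean was 10.01, 10.04, 9.98 and 10.09 on chow and 10.31, 10.36, 10.29 and 10.08 at 5 days. In 22 of the 32, and in 8 of the 9 AP-1 factors, 5-day replicate 4 was the lowest of the 5-day arrays, and its list mean lay among the chow values. With the adipocyte covariate, Fos, Dusp1, Btg2 and Errfi1 gave 1.30, 0.54, 0.67 and 0.62.

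The promoters of Dusp1 and Btg2 are shown because both hold the cyclic AMP response element (CRE) TGACGTCA, which CREB binds, in capitals. Each is the 250 bases before the RefSeq start, on the minus strand of chr17:26508473-26508722 and chr1:134079156-134079405 (GRCm38.p6). The element begins at -143 in Dusp1, where an E-box in capitals follows at -126, and at -166 in Btg2.
Dusp1: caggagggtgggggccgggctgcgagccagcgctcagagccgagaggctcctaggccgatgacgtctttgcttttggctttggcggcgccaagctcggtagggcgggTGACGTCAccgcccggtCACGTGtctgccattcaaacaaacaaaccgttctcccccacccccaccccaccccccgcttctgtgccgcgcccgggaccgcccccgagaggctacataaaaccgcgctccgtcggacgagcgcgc
Btg2: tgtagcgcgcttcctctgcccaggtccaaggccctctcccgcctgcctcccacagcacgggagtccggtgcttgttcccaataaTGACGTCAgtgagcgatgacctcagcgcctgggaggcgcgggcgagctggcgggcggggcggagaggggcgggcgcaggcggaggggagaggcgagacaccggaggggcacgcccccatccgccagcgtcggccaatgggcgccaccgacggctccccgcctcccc
The CRE, also the same on both strands, was present in 3 of 13 windows (23.1%) of the 11 matched genes among the 12 largest positive differences above the signal limit, the other gene being Errfi1. It was present in 1.79% of all windows and in 0 of the 11 windows of the largest negative differences. The CArG box of serum response factor was found in 0 windows of either group of 12 and in 1.63% of all.

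The other genes among the 12 largest positive differences above the signal limit had various roles. Tmem252, a small membrane protein, gave 8.0, 8.38, 8.17 and 8.25 on chow and 8.82, 8.96, 9.08 and 8.66 at 5 days, a difference of 0.68 ± 0.10 (adjusted p = 0.0560, limma). Adamts1, a secreted protease that cleaves versican, gave 9.16, 9.56, 9.03 and 9.08 on chow and 9.69, 9.88, 9.94 and 9.77 at 5 days, a difference of 0.61 ± 0.11. Irf2bp2, a corepressor, gave 0.52 ± 0.10, with smaller positive values from its other 3 probe sets. Lmod2, which lengthens thin filaments, gave 11.55, 11.66, 11.87 and 11.64 on chow and 12.35, 12.24, 11.94 and 12.17 at 5 days, a difference of 0.50 ± 0.09. Herc2, a large ubiquitin ligase, gave 0.61 ± 0.18, with 2 of its 4 probe sets lower at 5 days.

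Insulin signalling differed at few genes. Irs2, the insulin receptor substrate that is repressed by insulin in several tissues, gave 8.90, 9.04, 9.11 and 9.0 on chow and 9.39, 9.66, 9.38 and 9.23 at 5 days, a difference of 0.40 ± 0.09 (adjusted p = 0.0727, limma), with no overlap. Irs1 and the receptor Insr gave -0.12 ± 0.08 and 0.11 ± 0.06 with overlapping groups. Socs3, an inhibitor of cytokine and insulin signalling, gave 7.45, 7.87, 7.45 and 7.43 on chow and 8.18, 8.20, 9.41 and 7.68 at 5 days, where replicate 3 was far above the others and replicate 4 below 1 chow array. Of 19 measured genes of the receptor and its substrates, 2 (10.5%) were higher without overlap and 0 lower, with a median of 0.09. Less that of all genes it was 0.10, and 0.05 after quantile normalization or cyclic loess.

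Further along, Pik3ca, a catalytic subunit of PI 3-kinase, and Tsc2, a brake on mTOR, gave 0.19 ± 0.06 and 0.21 ± 0.07 without overlap, although 2 of the 6 probe sets of Pik3ca were lower. The glucose transporter of muscle, Slc2a4, gave 13.28, 13.29, 13.31 and 13.29 on chow and 13.34, 13.38, 13.30 and 13.37 at 5 days, a difference of 0.06 ± 0.05, and hexokinase 2, Hk2, gave 0.08 ± 0.06, both with overlapping groups. Slc2a1, the basal transporter, was higher in every 5-day array, by 0.29 ± 0.09. Ppp1r3b, which targets a phosphatase to glycogen and is abundant in liver, was lower in every 5-day array, with a difference of -0.60 ± 0.14. Fbp2, the muscle form of fructose bisphosphatase, was higher in every 5-day array, by 0.24 ± 0.08.

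Clock genes showed little. Of 22 measured, 2 (9.09%) were higher without overlap, with a median of 0.06. Nfil3, a repressor in the clock's output arm that also responds to stress, gave 10.06, 9.86, 10.19 and 9.95 on chow and 10.27, 10.60, 10.20 and 10.46 at 5 days, a difference of 0.37 ± 0.10. Per1, which is also an immediate early gene, gave 0.18 ± 0.07, with groups that overlapped slightly. Of 27 genes of the unfolded protein and integrated stress responses, 4 (14.8%) were higher without overlap, and of 26 antioxidant enzymes also 4 (15.4%), with 0 lower in either list. Xbp1, a factor of the unfolded protein response, gave 0.30 ± 0.08, and Dnajc3, its chaperone target, gave 0.25 ± 0.07. Srxn1 and Gsr, which restore oxidised proteins and glutathione, gave 0.33 ± 0.08 and 0.20 ± 0.06, and Nfe2l2, the factor NRF2 that drives both, gave 0.23 ± 0.07. These 5 genes were higher in every 5-day array, although 1 probe set each of Xbp1, Srxn1 and Nfe2l2 was lower.

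Matrix genes were higher on average but spread widely among the arrays. Col1a1, the main chain of type I collagen, gave 10.71, 11.26, 10.68 and 11.32 on chow and 11.73, 12.06, 10.92 and 12.06 at 5 days, a difference of 0.70 ± 0.23 with overlapping groups (adjusted p = 0.127, limma). All 17 measured collagens had positive differences, with a median of 0.33, yet 0 had groups that did not overlap. In all 17, 5-day replicate 3 was the lowest of the 5-day arrays, and the list mean was 10.11, 10.32, 10.10 and 10.42 on chow and 10.55, 10.67, 10.22 and 10.73 at 5 days. Replicate 3 was also the lowest 5-day array in 12 of 14 fibroblast markers, or in 9 of 11 without the 3 that are also on the collagen list. Their list mean was 10.97, 11.02, 10.80 and 11.20 on chow and 11.32, 11.50, 11.03 and 11.36 at 5 days, with 2 (14.3%) higher without overlap. The part of the fibroblast level in the collagen values was not tested.

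Several secreted matrix proteins that do not form fibrils had groups that did not overlap. Fbln2, a fibulin of basement membranes, gave 9.54, 9.71, 9.68 and 9.73 on chow and 10.08, 10.25, 9.91 and 10.18 at 5 days, a difference of 0.44 ± 0.08 (adjusted p = 0.0688, limma). Fstl1, a secreted follistatin-like protein, gave 10.43, 10.52, 10.42 and 10.40 on chow and 10.70, 10.94, 10.76 and 11.06 at 5 days, a difference of 0.42 ± 0.08. Prg4, the lubricating proteoglycan, gave 0.39 ± 0.09, and Lamc1, a laminin chain, gave 0.34 ± 0.09. All 4 genes were higher in every 5-day array. Pcolce and Loxl1, which process collagen and cross-link elastin, gave 0.35 ± 0.09 and 0.28 ± 0.07, also without overlap, although the second probe set of Loxl1 gave -0.06. Ccn2, connective tissue growth factor, gave 10.46, 10.68, 10.64 and 10.51 on chow and 11.25, 11.38, 10.81 and 10.84 at 5 days, a difference of 0.50 ± 0.12. Of 32 matricellular and remodelling genes, 5 (15.6%) were higher without overlap and 1 lower, 8 passed an adjusted p under 0.1 in the higher direction, and the median was 0.19.

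Vascular markers were higher on average as well. Vwf, made by endothelial cells, gave 8.56, 8.62, 8.76 and 8.76 on chow and 8.97, 9.18, 8.98 and 8.88 at 5 days, a difference of 0.33 ± 0.08. Cldn5 and Pecam1, junction proteins of endothelium, gave 0.37 ± 0.09 and 0.37 ± 0.12 with overlapping groups, since 5-day replicate 3 lay among the chow arrays. Of 19 endothelial markers, 18 had positive differences and 3 (15.8%) were higher without overlap, with a median of 0.17. Myh11, smooth muscle myosin, was higher in every 5-day array, by 0.36 ± 0.09, and the pericyte channel Kcnj8 gave 0.33 ± 0.09 with overlapping groups.

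**Figure D4:**
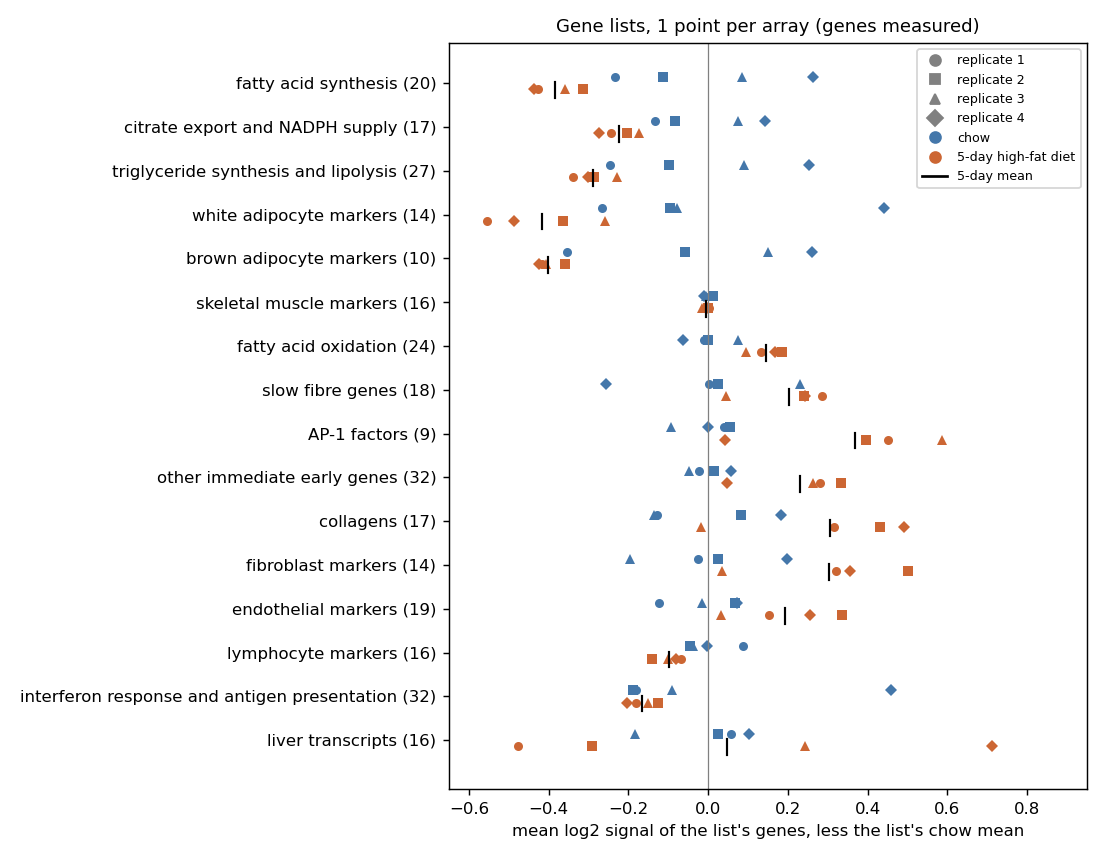
Mean log2 signal of each gene list less its chow mean (x axis), 1 point per array, blue for chow and orange for 5 days, marker shape the replicate and black ticks the 5-day means; the number of genes measured is in parentheses. The lipogenic and adipocyte lists share the order of their chow arrays, the matrix and vascular lists have 5-day replicate 3 lowest, the immediate early lists have 5-day replicate 4 lowest, and skeletal muscle markers lie at 0.

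Fast fibre genes, the bulk of mouse limb muscle, did not separate the groups: all 20 measured differences lay between -0.05 and 0.04. Their chow means ran from 14.55 (Myh2) to 15.44 (Ckm), near 15.45, the highest value on any array. Differences may be compressed at such signals, which was not tested. The same limit applies to the skeletal muscle markers, many of which are the same genes. Slow fibre genes were higher on average, with a median of 0.23 over 18 genes, of which 1 (5.56%) was higher without overlap. Tnnc1, troponin C of slow fibres, gave 12.18, 12.13, 12.53 and 11.83 on chow and 12.66, 12.56, 12.40 and 12.55 at 5 days, a difference of 0.37 ± 0.12 with overlapping groups. Chow replicate 3 lay with the 5-day arrays and chow replicate 4 far below. The list mean was 11.49, 11.51, 11.72 and 11.23 on chow and 11.77, 11.73, 11.53 and 11.73 at 5 days, so the chow arrays differed among themselves by more than the groups did. Without chow replicate 4 the median, less that of all genes, was 0.11, against 0.24 with all arrays. Mb, myoglobin, was the gene without overlap, at 0.14 ± 0.07, although its second probe set gave -0.14, while Csrp3 and Lmcd1, genes of the Z-disc and its signalling, gave 0.31 ± 0.11 and 0.34 ± 0.10 with overlapping groups. Stac3 and Orai1, which serve calcium release and entry, were higher in every 5-day array, by 0.18 ± 0.06 and 0.20 ± 0.06. Trim63, an atrophy ubiquitin ligase, gave 0.22 ± 0.10 with overlapping groups, and Musk, the receptor that organises the neuromuscular junction, gave 0.20 ± 0.07 without overlap.

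Lymphocyte markers were lower on average. Of 16 lymphocyte markers, 5 (31.2%) were lower without overlap and 0 higher, with a median of -0.14, or -0.09 against their signal deciles. The list was not lower throughout. Cd2, Ighm, Ptprc and Gzma gave 0.22, 0.19, 0.06 and 0.01 with overlapping groups, while the other members had negative differences. Ms4a1, the B cell antigen CD20, gave 7.65, 7.59, 7.52 and 7.71 on chow and 7.35, 7.32, 7.18 and 7.33 at 5 days, a difference of -0.32 ± 0.07. Cd3e, of the T cell receptor, gave 8.94, 8.89, 8.95 and 8.89 on chow and 8.74, 8.64, 8.74 and 8.80 at 5 days, a difference of -0.18 ± 0.06. Ccl5, a chemokine of T cells, gave 8.21, 8.12, 8.10 and 8.11 on chow and 7.98, 7.72, 7.71 and 7.78 at 5 days, a difference of -0.34 ± 0.07. The groups did not overlap in any of the 3, at sizes of at most 1.26-fold. Without chow replicate 1 the list's median, less that of all genes, was -0.08, against -0.13 with all arrays.

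Interferon and antigen presentation genes had a median of -0.11, with 3 of 32 (9.38%) lower without overlap. Oas1a, an antiviral sensor, was lower in every 5-day array, with a difference of -0.28 ± 0.06. Their list mean was 8.58, 8.57, 8.67 and 9.22 on chow and 8.58, 8.63, 8.61 and 8.55 at 5 days, and chow replicate 4 was the highest chow array in 29 of 32 genes. Without that array the median, less that of all genes, was 0.03, against -0.10 with it. Macrophage markers had a median of 0.09, with 2 of 16 higher and 1 lower without overlap. Lyz1 and Lyz2 were the higher ones, at 0.20 ± 0.07 and 0.18 ± 0.07, and Adgre1 was the lower one, at -0.23 ± 0.07. Tlr4, the lipopolysaccharide receptor, gave 7.26, 7.12, 7.12 and 7.35 on chow and 7.68, 7.63, 7.59 and 7.43 at 5 days, a difference of 0.37 ± 0.08, and Saa2, an acute-phase protein, gave 0.60 ± 0.13, both without overlap, although 1 of 4 probe sets of Tlr4 was slightly lower.

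Housekeeping lists gave the scale of differences elsewhere. Of 40 proteasome genes, 7 (17.5%) were higher without overlap and 0 lower, with a median of 0.05 that was -0.0032 against their signal deciles, and the subunit Psmd1 gave 0.17 ± 0.06. Of 43 cytosolic ribosomal protein genes, 1 was higher and 2 were lower without overlap. Rpl12 and Rps25 were the lower ones, at -0.38 ± 0.08 and -0.26 ± 0.07. Each had 1 probe set, with chow means of 7.78 and 9.02, against a median of 7.635 over all values. Among 24 heat shock protein genes, 3 (12.5%) were higher without overlap, and Hspa4, a heat shock protein that assists other chaperones, gave 0.27 ± 0.07 with 2 of its 4 probe sets lower.

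**Figure D5:**
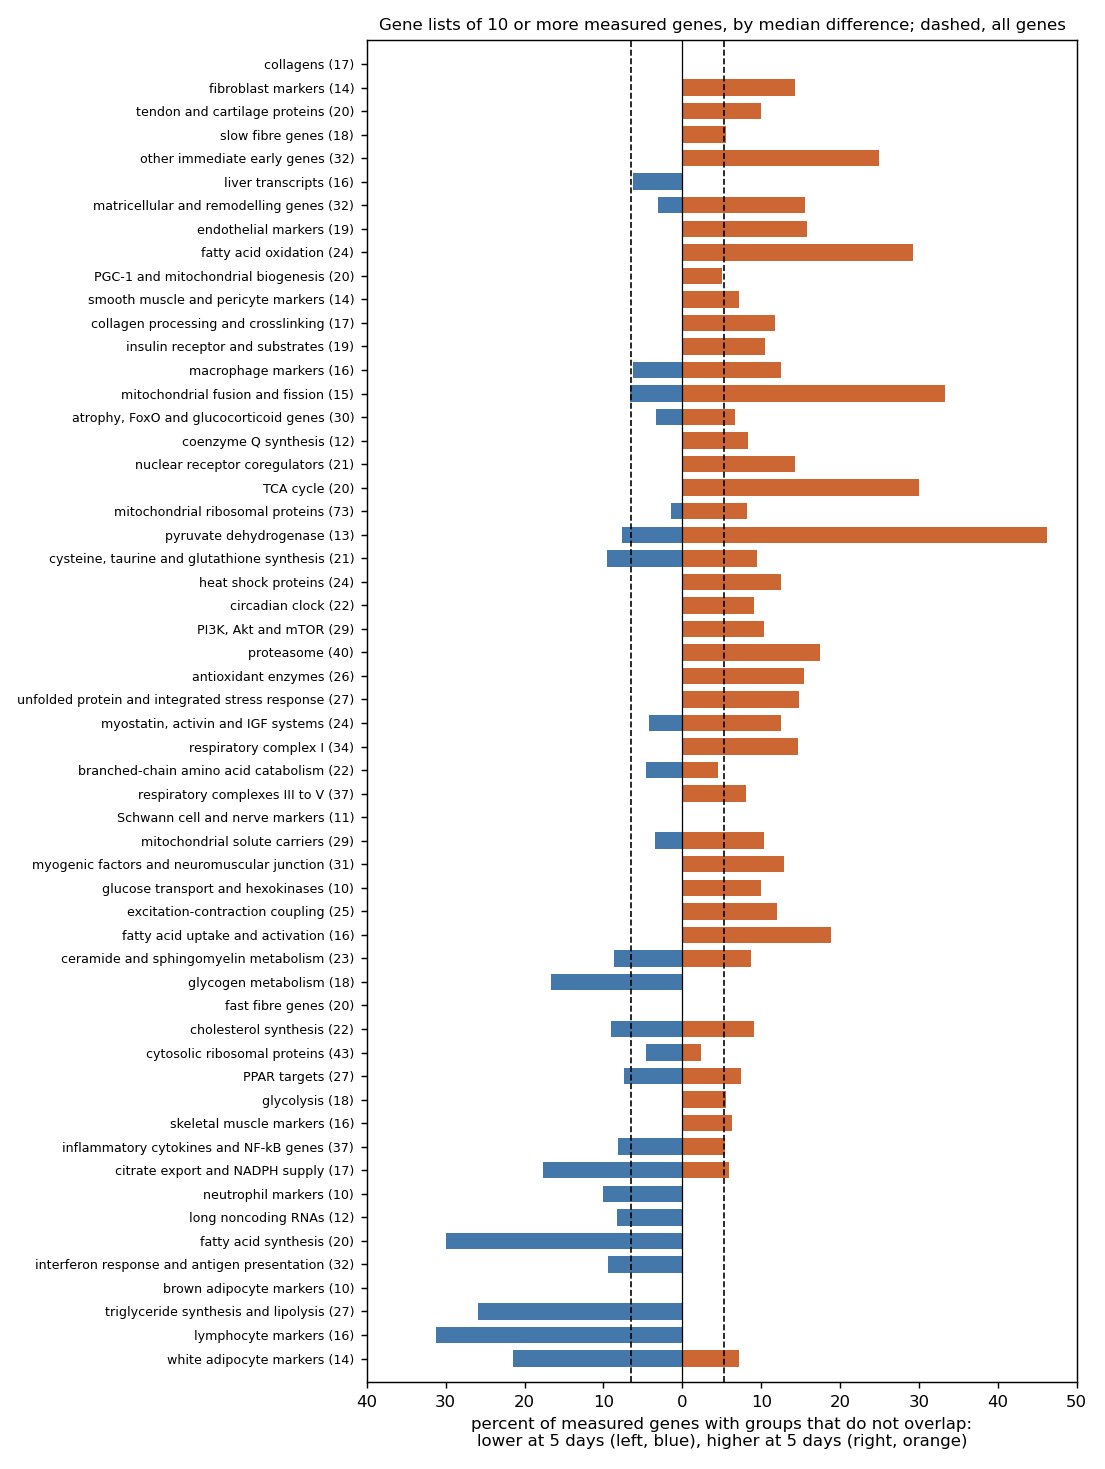
Percent of the measured genes of each list (number in parentheses) whose groups did not overlap, lower at 5 days to the left (blue) and higher to the right (orange), with lists ordered by median difference; dashed lines are the background over all genes, 6.45% lower and 5.24% higher. Lymphocyte, fatty acid synthesis and triglyceride lists reach farthest left, and the pyruvate dehydrogenase, mitochondrial dynamics, TCA and fatty acid oxidation lists farthest right. The background is not matched for signal.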

How the data were processed

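RNA was measured on Affymetrix arrays. The values, as deposited, are log2 signals per probe set made with RMA, which per the submitters' processing notes is the only tool named, with no version or settings. The log2 scale was inferred from the values, which run from 3.67 to 15.45. Control probe sets were left out and 45037 tested with limma 3.58.1 (R 4.3.3, lmFit and eBayes, two-sided, 4 arrays against 4, Benjamini-Hochberg over all). Precision is limited by having 4 arrays in each group. Of these probe sets, 34945 had 1 gene symbol in GEO's platform annotation, 932 several and 9160 none, and 34741 of the first were matched to RefSeq by Entrez ID. A gene was represented by its brightest probe set over the 8 arrays. Named genes were the 12 largest differences in each direction without overlap (clone-like names left out, the higher group's mean above the median of all probe sets), members of the gene lists with the smallest p, a fixed panel, and every gene with a probe set past the test. The members and lists were chosen with earlier results of these data known. Alternatives covered scaling, probe set choice, the spread of all 12 arrays, a filter, priors, array weights, a replicate block, a marker covariate and leaving out each array. Scripts were tested on simulated data.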

Additional observations from a re-analysis of the deposited data

Results flagged for a closer look

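In 286 groups of 4 arrays, taken over the named genes and the gene lists, 14 had 1 array whose gap to the nearest other was above the critical share of the group's range in Dixon's test for 4 values. Chance alone gives about 1 in 20 independent groups of normal values. The groups here were neither independent nor chosen without regard to their values, so that rate cannot say whether the 14 arose by chance. All values are log2 signals.

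Chow replicate 4 was the outlying array in 4 of the 14. Adipoq, adiponectin, was 12.91 there and at most 11.82 in the other chow arrays. Cyp2e1, a microsomal P450, was 13.54 there, with 12.48 the nearest. The mean of the interferon response and antigen presentation genes was 9.22, with 8.67 the nearest. Hexokinase Hk2 was 13.4, with 13.3 the nearest.

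Among other chow arrays, replicate 1 was low for Opa1, which fuses mitochondrial inner membranes, at 11.92, and for the immediate early gene Ier5, at 9.14. It was high for the chemokine Ccl5, at 8.21. Socs3, a cytokine signalling inhibitor, was 7.87 in chow replicate 2, with 7.45 the nearest.

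Among 5-day arrays, replicate 4 was low for Csad, an enzyme of taurine synthesis, at 7.67, and for the coactivator Ppargc1a, at 10.58 against 10.94 in the nearest. Replicate 3 was high for Cyp2e1, at 12.13 against 11.37, and for the bisphosphatase Fbp2, at 11.42 against 11.17. Replicate 2 was high for the proteasome subunit Psmd1, at 12.23, and for the mean of the pyruvate dehydrogenase genes, at 11.85.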

How the results depend on the processing

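The count of 7 probe sets at an adjusted p under 0.05 was 1445 with the spread of 12 arrays, 12 when each gene's probe sets were averaged, 1 with quantile normalization, 933 (842 higher, 91 lower) with arrays centred on their median, 1 with cyclic loess, 4 without the 40% dimmest probe sets, 336 (237 higher, 99 lower) with a trended and robust prior, 15 with array weights, 1920 at an adjusted p under 0.1, and 0 to 111 without each array in turn. With the replicate block it was 0 (limma; 9302 at an unadjusted p under 0.05), but the numbers only name samples: same-number correlations were 0.178, -0.176, 0.099 and -0.098, and 1 of 4 arrays correlated best with its own number. With the white adipocyte covariate it was 0 (limma; 7068 unadjusted). The 5274 probe sets without overlap (2197 higher, 3077 lower) were 4191, 5961 (4676 higher, 1285 lower), 4285 and 3701 under quantile, centring, loess and the filter, and 6164 to 8437 without single arrays, which leaves fewer values to overlap. The median difference of all probe sets was -0.0207 as deposited, and -0.0054, 0.0383 and -0.0011 under quantile, centring and loess. Of 122 named genes and probe sets, 114 kept their sign throughout. Many were named for groups without overlap or for small p in these same arrays. A difference without overlap cannot change sign when a single array is left out. Changes of the spread, prior or threshold do not alter a difference at all. The count was thus largely fixed in advance and is no measure of robustness. Ucp3 was 0.1412 with the mean of probe sets, 0.0455 centred and -0.0794 to 0.0316 without single arrays. Srebf1 was -0.0845 (quantile), -0.0684 (loess) and -0.026 to 0.0423, and Mlxipl -0.037, -0.0183 and -0.0111 to 0.0943. Pdk4 was 0.0083 centred. With the covariate, Lep was 0.1118, Plin2 0.0172, Hp 0.0974 and Angptl4 0.1651, and Lep was -0.1372 to 0.0034 without single arrays. List medians less that of all genes moved, under quantile and loess, to 0.1027 and 0.0933 for fatty acid oxidation, 0.0156 and 0.0171 for pyruvate dehydrogenase, 0.0354 and 0.0368 for PGC-1, 0.0299 and 0.0324 for fusion and fission, and 0.0513 and 0.0494 for the insulin receptor list, and under loess to 0.03 for the TCA cycle and 0.0117 for complex I. Without single arrays lymphocyte markers ranged from -0.1592 to -0.0759, macrophage markers from 0.0744 to 0.1609 and clock genes from 0.0377 to 0.0932. The cause of these shifts was not tested.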
